A study of Mus musculus with 7 samples.

Results

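Expression of 8 Sox genes was followed in E16 mouse retina: the SoxB genes *Sox1* and *Sox2*, the SoxC genes *Sox4*, *Sox11* and *Sox12*, and the SoxE genes *Sox8*, *Sox9* and *Sox10*. They are the rows of the deposited count table with these gene names, out of 48440 genes listed, and all 8 passed edgeR's expression filter with 20019 genes in all. The table comes from bulk RNA-seq of 7 libraries: 1 of genotype Chx10Cre (WT), 3 of Chx10-Cre;Ptbp1lox/WT (Het) and 3 of Chx10-Cre;Ptbp1lox/lox (KO). The study asks what loss of *Ptbp1*, a repressor of exon splicing, does to the developing retina, and the comparison made here is KO against Het. All libraries carry Chx10-Cre, so no group lacks Cre. The transgene acts in retinal progenitors, and the loxP sites enclose the *Ptbp1* promoter with exon 1. Each library is a pool, of 6 retinas for WT, 5, 5 and 6 for Het1 to Het3, and 4, 4 and 6 for KO1 to KO3. The WT group has 1 library and carries no error.

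Sox proteins bind DNA through a single HMG box, which fits into the minor groove and bends the helix. SoxB proteins keep neural progenitors cycling, SoxC proteins act as progenitors leave the cycle and turn on neuronal genes, and SoxE proteins are used by progenitors with glial potential, by glia and by neural crest derivatives. In the retina, *Sox2* and *Sox9* mark progenitors and later Müller glia, *Sox8* is also found in Müller glia, and *Sox4* and *Sox11* are needed for ganglion cells. *Sox10* is best known from Schwann cells, oligodendrocytes and melanocytes.

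A window of 60 coding bases in the HMG box is shown for the 8 genes. It is the window of *Sox2* that the members together matched best, with the best match to it in each other gene. The windows show how close the members of a subgroup are and where counting could confuse them. Lower-case letters mark the 31 positions that are the same in all 8, and capitals mark the 29 that differ between members. Sequences are from GENCODE M21 transcripts on GRCm38 and read 5′ to 3′ on the coding strand.
Sox1: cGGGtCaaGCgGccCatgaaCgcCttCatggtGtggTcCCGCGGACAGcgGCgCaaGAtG
Sox2: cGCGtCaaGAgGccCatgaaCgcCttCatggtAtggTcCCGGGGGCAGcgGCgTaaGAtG
Sox4: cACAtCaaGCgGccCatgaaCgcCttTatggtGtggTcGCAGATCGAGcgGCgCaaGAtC
Sox11: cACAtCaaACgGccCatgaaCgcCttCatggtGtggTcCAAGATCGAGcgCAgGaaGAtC
Sox12: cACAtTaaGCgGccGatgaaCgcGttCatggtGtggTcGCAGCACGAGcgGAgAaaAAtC
Sox8: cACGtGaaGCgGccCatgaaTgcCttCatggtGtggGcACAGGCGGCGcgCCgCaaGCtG
Sox9: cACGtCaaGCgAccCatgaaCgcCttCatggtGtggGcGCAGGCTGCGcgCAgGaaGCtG
Sox10: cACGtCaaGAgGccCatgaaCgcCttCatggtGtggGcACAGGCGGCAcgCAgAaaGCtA

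The windows lie at chr8:12396508-12396567 for *Sox1* and chr3:34650539-34650598 for *Sox2*. Those of the SoxC genes are at chr13:28952791-28952850 (*Sox4*), chr12:27342208-27342267 (*Sox11*) and chr2:152397525-152397584 (*Sox12*). Those of the SoxE genes are at chr17:25570172-25570231 (*Sox8*), chr11:112782894-112782953 (*Sox9*) and chr15:79163351-79163410 (*Sox10*). *Sox1*, *Sox2* and *Sox9* are on the plus strand and the other 5 on the minus strand, and every window is coding exon. The box was taken as the 237-base stretch holding these windows over which the members were most alike. Over this box, *Sox1* and *Sox2* shared 89.9% of bases, pairs within SoxC 83.5% to 89.0%, and pairs within SoxE 81.4% to 85.2%. Pairs from different subgroups shared 65.4% to 72.2%. Over whole transcripts rather than the box, the longest stretch shared by a pair was 48 bases, between *Sox4* and *Sox11*, followed by 44 bases between *Sox9* and *Sox10*.

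The libraries held 120593979 to 171117305 counts on genes, and levels here are in CPM, each count divided by its library's total after TMM scaling. *Ptbp1* followed the labels: the KO libraries held 27.9, 6.04 and 46.9 CPM, the Het libraries 210.3 to 233.8 CPM and WT 381 CPM, and the log2 ratio of KO to Het was -3.04 (standard error 0.635, edgeR adjusted p = 0.0316). *Ptbp1* was not called without Het1, Het2, Het3 or KO1, where the edgeR adjusted p lay between 0.0519 and 0.0964. The retina's own transcription factors were present in every library, with mean CPM in Het of 558 for *Pax6*, 490.3 for *Six3* and 163 for *Rax*. Het1 stood apart through genes of other tissues. The summed CPM of 15 muscle genes was 339 in Het1 and 9.43 to 12.2 elsewhere, and that of 9 pigment cell genes was 547 in Het1 and 21.9 to 68.6 elsewhere. Endothelial genes were split: of 12, 9 were lower in KO1 and KO2 than in every other library, while *Kdr*, *Cldn5* and *Egfl7* were not. The sum over all 12, most of it *Kdr*, was 398 to 427 CPM in Het and 489 to 587 CPM in KO. Without *Kdr*, a choice made after the values were seen, it was 32.7 to 63.9 CPM in Het and 24.8, 20.5 and 41.8 CPM in KO1 to KO3.

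Of the 8 Sox genes, *Sox8* alone passed the test for a difference between Het and KO, and it was higher in KO. A gene was called when its edgeR adjusted p (Benjamini-Hochberg over all genes tested) was under 0.05 and its level differed by more than 1.2-fold either way, limits met by 1445 of 20019 genes (7.22%), 802 of them higher (4.01%) and 643 lower (3.21%). Het and KO values were fully separate for 2 of the 8, *Sox8* and *Sox12*, a share below the 36.3% of all genes tested. An unadjusted p below 0.05 was reached by 3 of the 8 (*Sox8*, *Sox10* and *Sox12*), against 29.7% of all genes. The median log2 fold change of the 8 was -0.07, and -0.0047 over all genes tested. *Sox8* had a positive value, and the other 7 had negative ones of which *Sox1*, *Sox2*, *Sox10*, *Sox11* and *Sox12* kept their sign under every alternative tried, while *Sox4* and *Sox9* turned under at least 1. In bulk RNA, fewer cells of a type and less RNA per cell cannot be told apart, for these genes as for all others.

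**Figure D1:**
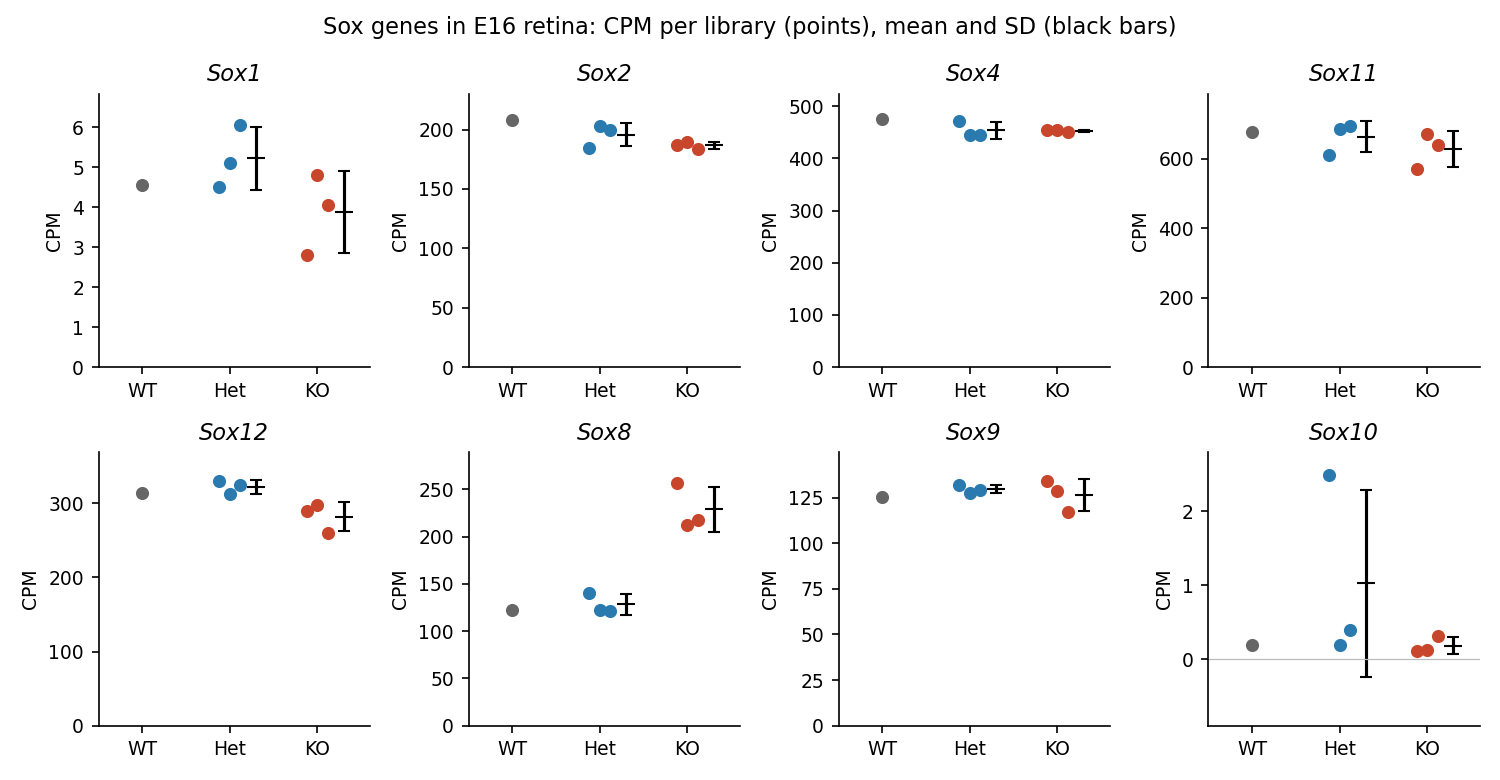
Expression of the 8 Sox genes in CPM (vertical axes, linear, with a different range in each panel) for the WT, Het and KO libraries (points), with the mean and SD of the 3 Het and the 3 KO libraries as black bars. *Sox8* sits at 212 to 256 CPM in KO and 121 to 141 CPM in Het, and the *Sox10* panel is set by Het1 at 2.48 CPM.

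**Figure D2:**
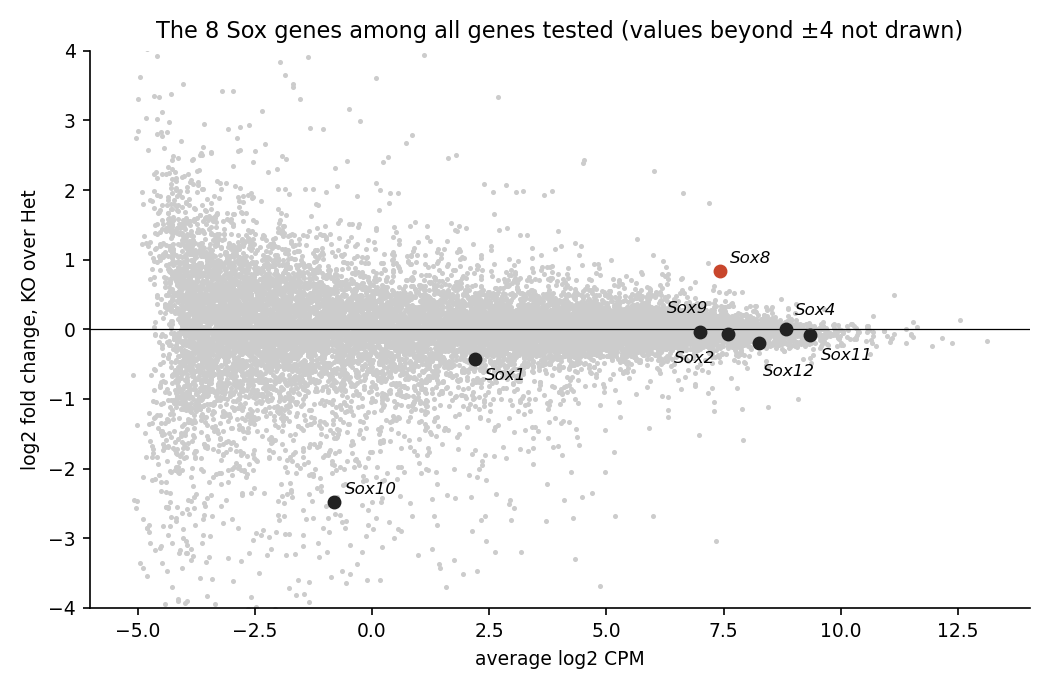
Log2 fold change of KO over Het (vertical axis) against average log2 CPM (horizontal axis) for the genes tested in edgeR, as grey points, with the 8 Sox genes as large points. *Sox8*, in red, lies at 0.84, while *Sox2*, *Sox4*, *Sox9*, *Sox11* and *Sox12* lie between -0.19 and 0 among genes of like abundance.

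*Sox2*, which holds retinal progenitors in a neurogenic state, was expressed at nearly the same level in Het and KO. In the order of their replicate numbers, the Het libraries held 185, 203 and 199 CPM and the KO libraries 187, 189 and 184 CPM, with 208 CPM in WT. All 3 KO values lay below Het2 and Het3, and Het1 lay among them, so the groups overlapped. *Sox2* had a log2 fold change of -0.07 (standard error 0.0414, edgeR adjusted p = 0.316). Its 95% interval, from -0.17 to 0.03, lies within the fold limit on both sides.

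*Sox1*, the other SoxB gene, acts in early neural tissue and in lens fibre cells, and it was the second lowest of the 8 here. Its values were 4.55 CPM in WT, 4.50, 5.10 and 6.06 CPM in Het, and 2.79, 4.81 and 4.05 CPM in KO. The highest KO library lay above the lowest Het library. The log2 fold change of -0.43 (standard error 0.213, 95% interval -0.94 to 0.08, edgeR adjusted p = 0.232) did not pass the test, and its interval includes both 0 and values past the fold limit.

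The long noncoding host gene of *Sox2*, *Sox2ot*, did rise although *Sox2* itself did not pass the test. *Sox2ot* spans chr3:34104270-34682619 on the same strand, and *Sox2* lies within it without sharing exonic bases. *Sox2ot* was at 15.7 CPM in WT, 15.6, 15.7 and 14.8 CPM in Het, and 21.0, 20.3 and 19.2 CPM in KO. All KO libraries lay above all Het libraries, and the log2 fold change came to 0.39 (standard error 0.0537, edgeR adjusted p = 0.0107). Leaving out 1 library at a time kept the call in 5 of 6 fits, and without Het2 the edgeR adjusted p was 0.0520. The difference between the fold changes of *Sox2ot* and *Sox2* was not tested. Sox1ot, which spans *Sox1* in the same way, had a log2 fold change of -0.02 and an adjusted p of 0.956 in edgeR.

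RNA of the genes for proteins that work with *Sox2* on shared target sites was read as a list of 7 genes. Of these 1 rose and 1 fell, against 4.01% and 3.21% of all genes tested. An unadjusted p below 0.05 was reached by 3 of the 7, against 29.7% of all genes tested. *Pou3f2*, a POU factor of neural progenitors and neurons, rose from 41.1, 40.2 and 38.3 CPM in Het to 52.5, 48.0 and 49.3 CPM in KO (log2 fold change 0.33, standard error 0.0447, edgeR adjusted p = 0.0108). *Pou3f1*, its close relative, fell from 80.2, 78.8 and 84.1 CPM to 54.8, 61.8 and 55.2 CPM (log2 fold change -0.50, standard error 0.0535, edgeR adjusted p = 0.00628). For both, Het and KO did not overlap. The most abundant members, the eye field factor *Pax6* and the chromatin remodeller *Chd7*, had log2 fold changes of -0.05 and -0.02 and did not pass the test. The median over the 7 was -0.05. Without Het2 *Pou3f2* was not called (edgeR adjusted p = 0.0593), which leaves *Pou3f1*.

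The SoxC genes *Sox4* and *Sox11*, which drive neuronal genes in cells leaving the cycle, were the most abundant of the 8 in CPM and did not differ between genotypes beyond their spread. *Sox4* was at 475 CPM in WT, 472, 444 and 445 CPM in Het, and 454, 454 and 451 CPM in KO. The KO libraries lay inside the Het range, and their SD was 1.69 CPM, a coefficient of variation of 0.373%. *Sox4* had a log2 fold change of -0.0029 (standard error 0.0356, 95% interval -0.09 to 0.08, edgeR adjusted p = 0.966).

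*Sox11* was at 679 CPM in WT, 612, 685 and 695 CPM in Het, and 570.0, 673 and 640.3 CPM in KO. The lowest library of each genotype was its replicate 1, and the ranges overlapped. *Sox11* had a log2 fold change of -0.08 (standard error 0.0764, 95% interval -0.26 to 0.10, edgeR adjusted p = 0.509), so that the lower bound reaches the fold limit and the upper does not.

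*Sox12*, the SoxC factor with the weakest activity in many assays, was lower in every KO library than in every Het library without passing the test. It was measured at 314 CPM in WT, 330.3, 312 and 325 CPM in Het, and 289, 297 and 259 CPM in KO. The Het mean was 322 ± 9.48 CPM and the KO mean 282 ± 19.9 CPM (SD, n = 3 each). This gave a log2 fold change of -0.19 (standard error 0.0562, 95% interval -0.33 to -0.06) and an edgeR adjusted p of 0.0735. DESeq2 gave an adjusted p of 0.00686 with a fold change that also stayed under the limit.

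*Sox8*, the SoxE factor that rose, was higher in each KO library than in any Het or WT library. It was measured at 122 CPM in WT, 141, 122 and 121 CPM in Het, and 256, 212 and 218 CPM in KO. Het1 was the highest Het library and KO1 the highest KO library, and the Het and KO ranges did not overlap. The mean rose 1.79-fold, from 128 ± 10.9 CPM to 229 ± 23.8 CPM (SD, n = 3 each), and the KO mean was 188% of the WT value. On the log2 scale the rise was 0.84 (standard error 0.0892), with a 95% interval of 0.62 to 1.05 and an edgeR adjusted p of 0.00627. *Sox8* passed under all 15 alternatives of processing, with log2 fold changes of 0.75 to 0.91 and an adjusted p of at most 0.0425 (edgeR without Het2).

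*Sox8* lies at chr17:25565892-25570686 on the minus strand and overlaps the antisense gene *2810468N07Rik* at chr17:25570358-25575043. They share 329 exonic bases, 10.6% of the 3118 exonic bases of *Sox8*. The antisense gene was at 8.11 CPM in WT, 8.69, 8.11 and 8.30 CPM in Het, and 15.3, 12.4 and 12.8 CPM in KO. Its KO libraries lay above its Het libraries, with KO1 highest as for *Sox8*, for a log2 fold change of 0.69 (standard error 0.0919, edgeR adjusted p = 0.00969). Without Het2 its edgeR adjusted p was 0.0572, the only fit without a library in which it was not called. The library kit keeps strand, but whether the counting used it is not given in the sources used here. It is therefore not known whether reads of *Sox8* and of its antisense partner were kept apart over the shared bases. The 250 bases before the *Sox8* start in RefSeq, at chr17:25570687-25570936 on the minus strand of GRCm38.p6, are shown because every one of them is also exon of that antisense gene. Capitals mark the GC box GGGCGG, found at 2 places.
Sox8: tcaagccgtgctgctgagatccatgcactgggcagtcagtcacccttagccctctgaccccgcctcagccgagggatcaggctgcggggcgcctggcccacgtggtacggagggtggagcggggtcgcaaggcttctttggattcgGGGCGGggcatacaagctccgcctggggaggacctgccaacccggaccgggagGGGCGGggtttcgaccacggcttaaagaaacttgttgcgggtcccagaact

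A GC box on either strand was found in 32.7% of 32851 RefSeq promoter windows of that length. Windows of 300 bases around the start were also searched, on both strands, for the 7-base Sox site, read as A or T, again A or T, then CAA, then A or T, and last G. Of the 6 members with a window, *Sox2* held 1 match, TACAAAG at position -207 from its start, while 24.6% of all windows held at least 1. *Sox8* held none in its window. *Sox9* and *Sox10* had no window in the table.

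*Sox9*, the SoxE gene of progenitors and Müller glia, did not differ between genotypes where *Sox8* did. It was at 125 CPM in WT, 132, 128 and 129 CPM in Het, and 134, 129 and 117 CPM in KO. The KO libraries lay on both sides of the Het libraries. *Sox9* had a log2 fold change of -0.03 (standard error 0.0523), with a 95% interval of -0.16 to 0.09 and an edgeR adjusted p of 0.699, so the interval lies wholly below that of *Sox8*. The difference between the fold changes of *Sox8* and *Sox9* was read only through their share of SoxE counts, given with the other shares. With 3 libraries against 3, the exact permutation test of that share could not give a p below 0.1.

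*Sox10* was at the edge of detection in 6 of the 7 libraries and its values turned on Het1. It was measured at 0.188 CPM in WT, 2.48, 0.193 and 0.395 CPM in Het, and 0.106, 0.129 and 0.315 CPM in KO, from 422 counts in Het1 and 14 to 60 in the others. Het1 was far above the other 6 libraries, and the rest of Het overlapped KO. Het and KO gave a log2 fold change of -2.48 (standard error 0.998, 95% interval -4.87 to -0.10), with an edgeR adjusted p of 0.155. Without Het1 it was -0.69, with an edgeR adjusted p of 0.477, and DESeq2 on all libraries gave an adjusted p of 0.0107.

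Most pigment cell and muscle genes were highest in Het1, as *Sox10* was, while most Schwann cell and crest genes were not. Of 9 pigment cell genes 8 were highest in Het1, among them *Pmel* at 320.6 CPM against 12.6 to 34.3 CPM elsewhere, *Dct* at 98.1 against 2.54 to 11.2 and *Tyrp1* at 58.2 against 2.53 to 10.3. *Erbb3*, the neuregulin receptor of Schwann cell precursors, was at 3.90 CPM in Het1 and at 0.912 to 1.52 CPM elsewhere, and *Foxd3* had 23 counts in Het1. Of the 8 Schwann cell and crest genes 3 were highest in Het1. The 2 most abundant, *Mbp* and *Gfra3*, were not, with 49.9 and 2.38 CPM in Het1 and ranges elsewhere of 43.9 to 50.6 and 2.27 to 2.67. Muscle genes were also highest there in 14 of 15 cases, with *Myh3* at 88.8, *Acta1* at 64.2 and *Mylpf* at 41.3 CPM against at most 2.96 CPM for any of these 3 elsewhere. By edgeR 0 of 8 pigment, 0 of 8 Schwann cell and crest and 0 of 14 muscle genes tested passed in either direction. In these lists 3, 2 and 10 genes reached an unadjusted p below 0.05, against 29.7% of all genes tested. DESeq2 called 0, 0 and 1 of the 8, 6 and 2 to which it gave an adjusted p. Without KO3, 1 of the 8 pigment genes was called lower by edgeR. Their median log2 fold changes were -2.52, -0.08 and -4.70. Their part in the *Sox10* value was not tested.

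**Figure D3:**
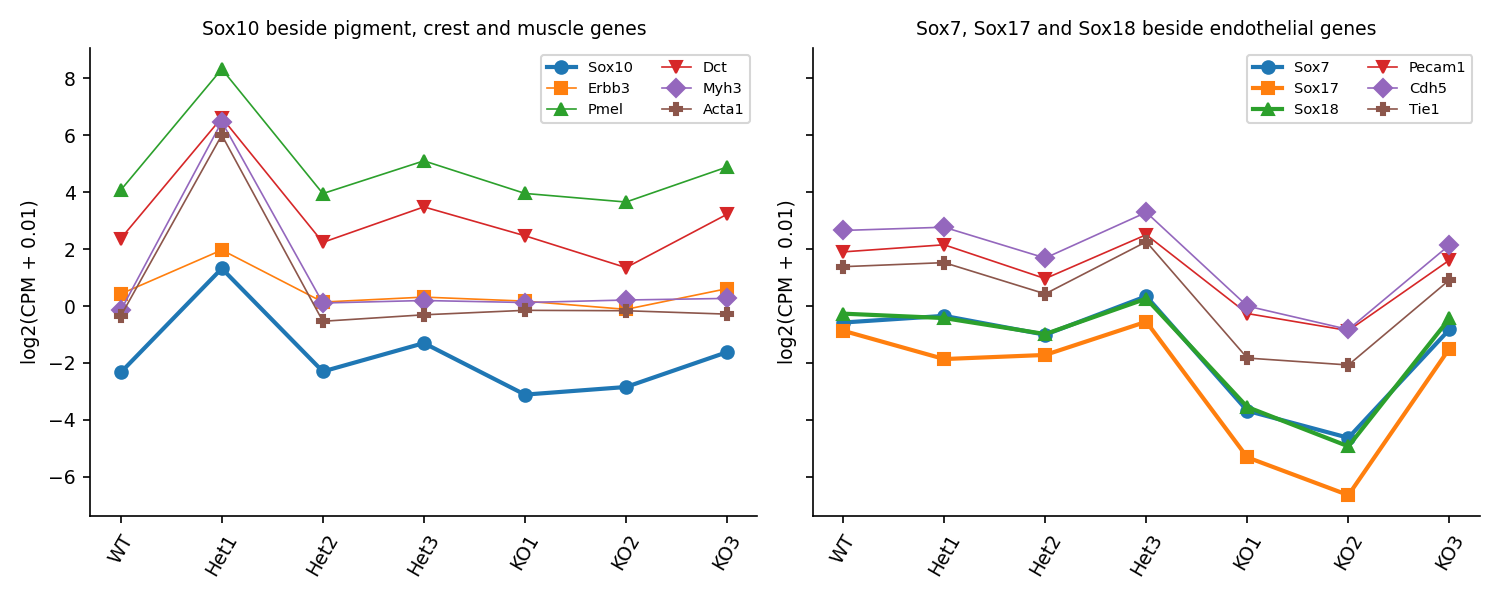
Log2(CPM + 0.01) on the vertical axis for the 7 libraries on the horizontal axis, with *Sox10* beside pigment, crest and muscle genes (left) and *Sox7*, *Sox17* and *Sox18* beside the endothelial genes *Pecam1*, *Cdh5* and *Tie1* (right). *Sox10* and the genes drawn beside it in the left panel peak in Het1, where *Sox10* is at 2.48 CPM. The Schwann cell and crest genes *Mbp* and *Gfra3*, not drawn, do not peak there. All genes drawn in the right panel are lowest in KO1 and KO2, and its endothelial genes were chosen after their values were seen. The endothelial genes *Kdr*, *Cldn5* and *Egfl7*, not drawn, are not lowest in KO1 and KO2.

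Levels of the members were compared as CPM per kilobase of exonic length, since longer transcripts collect more counts. In Het the mean levels per kilobase were 95.1 for *Sox2*, 94.7 for *Sox4*, 79.9 for *Sox11*, 72.4 for *Sox12*, 41.1 for *Sox8*, 31.3 for *Sox9*, 1.08 for *Sox1* and 0.336 for *Sox10*. The order of *Sox2* and *Sox4* was not settled, since *Sox2* was the higher in 3 of the 7 libraries. *Sox4* was above *Sox11* in 7 of 7 libraries, *Sox8* above *Sox9* in 7 of 7, and *Sox9* above *Sox1* in 7 of 7, each with no overlap of the ranges. *Sox11* and *Sox12* overlapped, and so did *Sox1* and *Sox10*. *Sox12* was above *Sox8* in 4 libraries, the WT and Het ones. In KO the mean level of *Sox8* was 73.4 per kilobase and that of *Sox12* 63.3, while the others kept the Het order except that *Sox4*, at 94.5, stood above *Sox2*, at 90.8. The 8 genes together took 0.187% to 0.197% of the counts of a library.

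Within the SoxE subgroup the *Sox8* share was higher in KO than in Het, without reaching an exact permutation p below 0.05. *Sox8* gave 56.3% of the length-scaled SoxE counts in WT, 58.0%, 55.9% and 55.3% in Het, and 71.7%, 68.6% and 71.1% in KO. Every KO share lay above every Het share, and the difference of the means, from 56.4% ± 1.39 to 70.5% ± 1.63 (SD, n = 3), was 14.1 percentage points. The exact permutation test gave a two-sided p of 0.1, the smallest that 3 libraries against 3 allow, and 0.3 after adjustment over the 3 shares tested. Taken over *Sox8* and *Sox9* alone, the share was 56.7% in Het and 70.5% in KO. The sum of the SoxE genes per kilobase was 72.8 ± 4.38 in Het and 104 ± 9.15 in KO (SD, n = 3), a ratio of 1.43 with no overlap and an exact permutation p of 0.1.

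The make-up of the other subgroups moved by at most 2.19 percentage points. *Sox2* gave 98.9% ± 0.136 of SoxB in Het and 99.1% ± 0.225 in KO (SD, n = 3, exact permutation p = 0.3). *Sox11* gave 32.4% ± 2.13 of SoxC in Het and 32.3% ± 1.99 in KO (SD, n = 3, exact permutation p = 1.0). The share of *Sox4* in SoxC was 38.3% ± 1.47 in Het and 40.5% ± 1.26 in KO (SD, n = 3). That of *Sox12* was 29.3% ± 0.775 in Het and 27.1% ± 1.58 in KO (SD, n = 3), with no overlap, since Het ran from 28.6% to 30.1% and KO from 25.4% to 28.5%. The *Sox4* and *Sox12* shares were not tested. The summed level per kilobase was 96.2 in Het and 91.6 in KO for SoxB (exact permutation p = 0.3), and 247 in Het and 233 in KO for SoxC (exact permutation p = 0.1, with no overlap).

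**Figure D4:**
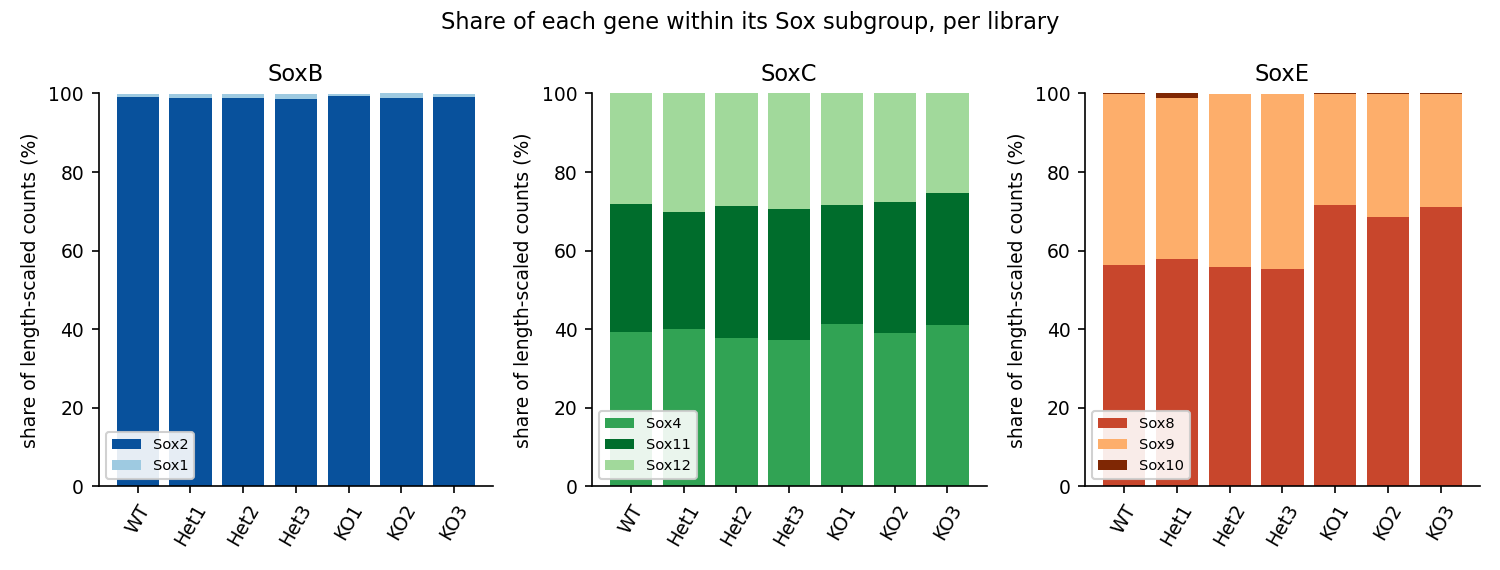
Share of each gene in the length-scaled counts of its subgroup, in percent on the vertical axis from 0 to 100, for the 7 libraries on the horizontal axis, with 1 panel each for SoxB, SoxC and SoxE. The *Sox8* part of SoxE covers 55.3% to 58.0% in Het and 68.6% to 71.7% in KO, while SoxB is nearly all *Sox2*.

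Among the other 11 Sox genes that passed the filter 1 was called, against 7.22% of all genes tested. The call was a fall of *Sox21*. An unadjusted p below 0.05 was reached by 4 of the 11, against 29.7% of all genes tested. *Sox21*, a SoxB factor that counters the activators of its subgroup, was at 0.807 CPM in WT, 0.830, 0.789 and 0.797 CPM in Het, and 0.362, 0.327 and 0.405 CPM in KO. The groups did not overlap, and the log2 fold change was -1.14 (standard error 0.157, edgeR adjusted p = 0.0109). Without Het2 it was -1.16 with an edgeR adjusted p of 0.0512. That fit called 0 of the 11, against 386 of 20015 genes in all, and 3 of the 11 reached an unadjusted p below 0.05. *Sox3*, the third SoxB activator beside *Sox1* and *Sox2*, was at 24.7 to 27.5 CPM in Het and 24.0 to 25.4 CPM in KO, with a log2 fold change of -0.09 and an edgeR adjusted p of 0.294.

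The SoxD genes *Sox5*, *Sox6* and *Sox13*, whose proteins lack an activation domain and pair with SoxE proteins in cartilage and glia, had values above 0 without passing the test. *Sox5* was at 7.26, 6.79 and 6.68 CPM in Het and 9.33, 8.17 and 7.90 CPM in KO, *Sox6* at 22.2, 16.1 and 16.98 and at 24.6, 25.05 and 21.6 CPM, and *Sox13* at 37.3, 39.6 and 36.5 and at 42.2, 46.9 and 40.6 CPM. For *Sox5* and *Sox13* the genotypes did not overlap, and for *Sox6* Het1 lay within the KO range. Their log2 fold changes were 0.29, 0.37 and 0.19, with edgeR adjusted p of 0.0761, 0.117 and 0.0849. *Sox6* passed without Het1, at 0.52, and *Sox5* and *Sox6* passed in DESeq2. With *Sox21* that made 3 of the 10 to which DESeq2 gave an adjusted p, against 2066 of 17407 genes in all.

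The SoxF genes *Sox7*, *Sox17* and *Sox18*, known from endothelial cells, were low in KO1 and KO2 and not in KO3. In Het they were at 0.487 to 1.26, 0.265 to 0.672 and 0.495 to 1.19 CPM. In KO1, KO2 and KO3 *Sox7* was at 0.0679, 0.0304 and 0.555 CPM, *Sox17* at 0.0151, 0 and 0.345 CPM, and *Sox18* at 0.0755, 0.0228 and 0.728 CPM. The 74, 46 and 97 counts of KO3 against at most 10 in KO1 or KO2 set the spread. The log2 fold changes were -1.94, -1.76 and -1.55, with edgeR adjusted p of 0.229, 0.381 and 0.363. Without KO3 all 3 passed, with edgeR adjusted p of 0.0171, 0.0231 and 0.0204. In that fit 4 of the 11 other Sox genes were called, against 1674 of 19944 genes in all. Among 12 endothelial genes 1 passed, against 7.22% of all genes tested. It was *Kdr*, which was higher in KO (log2 fold change 0.44, edgeR adjusted p = 0.0186) but was not called without Het2 or Het3. *Kdr* went against most of the list, in which 9 log2 fold changes were negative and 3 positive. Of the 12, 4 reached an unadjusted p below 0.05, against 29.7% of all genes tested, and their median log2 fold change as a list was -1.59. Without KO3, 9 of the 12 fell and *Kdr* rose. *Cldn5* and *Eng*, with *Kdr* the most abundant, had log2 fold changes of 0.23 and -1.95 and did not pass. The part of the endothelial genes in the SoxF values was not tested. *Sox14* and *Sox30* had log2 fold changes of 0.31 and 0.12 with edgeR adjusted p of 0.485 and 0.692, and *Sox15* held 0 to 20 counts in any library.

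**Figure D5:**
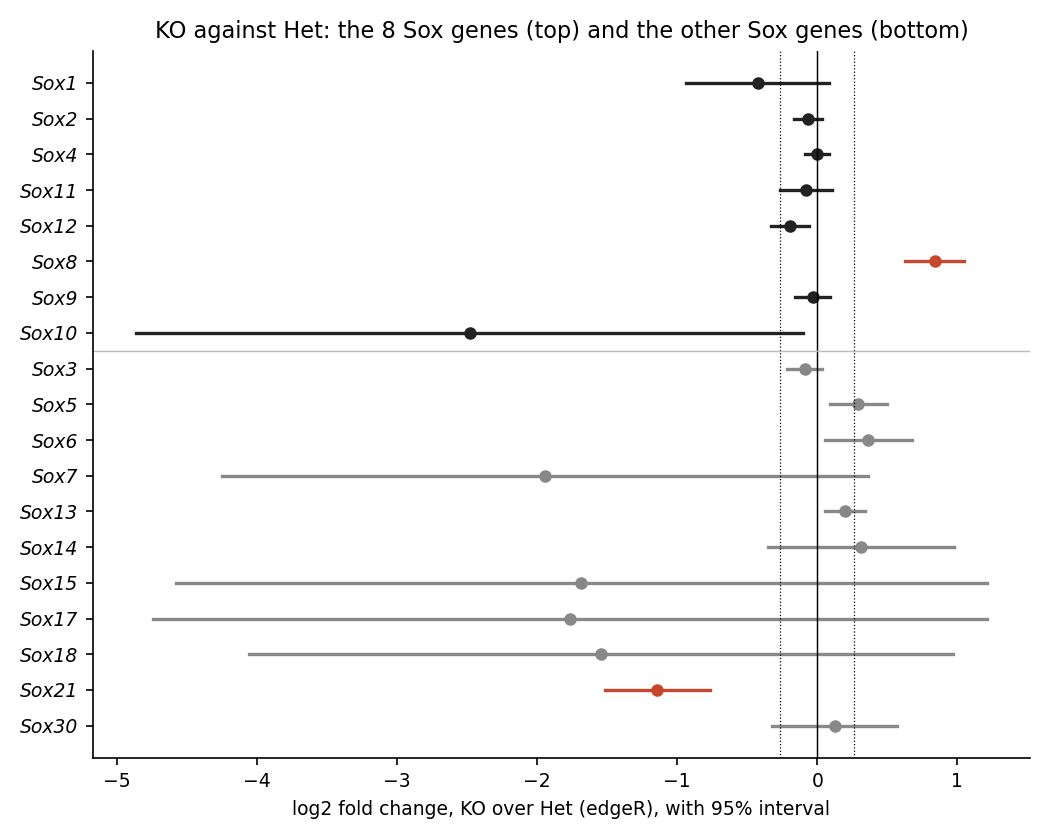
Log2 fold change of KO over Het from edgeR (horizontal axis) with its 95% interval (lines) for the 8 members (top, black) and the 11 other Sox genes (bottom, grey). The calls are in red and dotted lines mark the 1.2-fold limit: the interval of *Sox8* runs from 0.62 to 1.05 and that of *Sox21* from -1.52 to -0.77, while the widest belong to *Sox10*, *Sox15* and the SoxF genes.

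Markers of the stages at which the Sox members act were read from fixed lists. The lists were chosen with earlier results of these data known. Of 13 progenitor genes 3 rose and 2 fell by edgeR, against 4.01% and 3.21% of all genes tested. Their median log2 fold change was -0.01. An unadjusted p below 0.05 was reached by 9 of the 13, against 29.7% of all genes tested. The risers were the Notch receptor *Notch1* (0.29), its target *Hes5* (0.32) and the fatty acid binding protein *Fabp7* (0.45). The fallers were *Fgf15*, a growth factor of early progenitors (-0.49), and *Sfrp2*, a secreted Wnt inhibitor (-1.05). *Ccnd1*, with *Fgf15* among the most abundant of the list, had a value of 0.10 and did not pass. Leaving out any library ended the call of *Hes5* (0 of 6 fits), with an edgeR adjusted p of up to 0.127, although DESeq2 called it. Without Het2, 0 of the 13 passed in edgeR, against 386 of 20015 genes in all, while 7 reached an unadjusted p below 0.05. Without Het3 3 passed, against 496 of 19900 genes, and without KO2 2 passed, against 612 of 19995.

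Of 19 genes of new neurons 2 rose and 5 fell, against 4.01% and 3.21% of all genes tested. Their median log2 fold change was -0.10. An unadjusted p below 0.05 was reached by 10 of the 19, against 29.7% of all genes tested. Those that fell were the neuronal tubulin *Tubb3* (-0.35), the growth cone protein *Gap43* (-0.42), the RNA-binding protein *Elavl4* (-0.47) and the ganglion cell factors *Isl1* (-0.68) and *Atoh7* (-0.81). Those that rose were *Map2* (0.36) and *Neurod1* (0.32), a microtubule protein of dendrites and a factor of photoreceptor and amacrine precursors. *Dpysl3* and *Crmp1*, with *Tubb3* the most abundant, had values of -0.03 and -0.07 and did not pass. *Map2*, *Neurod1*, *Isl1* and *Atoh7* were called whichever library was left out (6 of 6 fits), and they were the 4 of the 19 that passed without Het2 or without Het3.

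Of 13 genes of late progenitors and glia 4 rose and 0 fell, against 4.01% and 3.21% of all genes tested. The median log2 fold change was 0.26. An unadjusted p below 0.05 was reached by 8 of the 13, against 29.7% of all genes tested. The 4 that rose were the NFI factors *Nfia* (0.33), *Nfib* (0.47) and *Nfix* (1.20), which late progenitors switch on, and the carbonic anhydrase *Car2* (0.79) of Müller glia. *Dkk3*, *Glul* and *Vim*, the most abundant, had values of -0.17, 0.005 and -0.21 and did not pass both limits. The other 6 genes of the list had values from -1.0003 (*Clu*) to 0.50 (*Rlbp1*) and did not pass either. Leaving out each library in turn, *Nfia* was called in 0 of 6 fits and *Nfix* in 1, with edgeR adjusted p of up to 0.143 and 0.133. Without Het2 or without Het3, 0 of the 13 passed in edgeR and 8 reached an unadjusted p below 0.05, and without KO1 or without KO2 2 passed. *Sox8* passed in each of these fits. DESeq2 called 5 higher, against 1062 of 17407 genes in all.

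The genes whose values over the 7 libraries were most like those of a member were ranked by Pearson's r of log2(CPM + 1) among protein-coding genes with a mean of at least 5 CPM, 11086 or 11087 of them. These values describe 7 libraries that share their depth and their stand-apart samples. Genes picked this way share the member's pattern over the libraries by choice, so that pattern is no further result. Among the genes closest to *Sox8* were *Frmd4b* (r = 0.997) and the protocadherin gene *Pcdh10* (0.996). *Frmd4b* was at 69.5 CPM in WT, 76.7, 71.2 and 71.8 CPM in Het, and 99.9, 92.01 and 92.3 CPM in KO, with Het1 and KO1 highest in their groups as for *Sox8*. The log2 fold changes of these genes were 0.37 and 0.63.

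For *Sox2* the nearest were *Kif2c* (0.979), *Bcas2* (0.971) and *Rp9* (0.970), for *Sox1* *Mad1l1* (0.975), *Wnk3* (0.970) and *Prkca* (0.966), and for *Sox4* *Ciz1* (0.972), *Iscu* (0.959) and *Dexi* (0.959). For *Sox11* they were *Cep72* (0.972), *Pcgf6* (0.967) and *Dicer1* (0.954), and for *Sox12* *Gal3st3* (0.996), *Gdpd5* (0.987) and *Acad10* (0.986). For *Sox9* they were *Olfm2* (0.991), *Ubap2* (0.991) and *Trappc9* (0.990). Those of *Sox10*, *Lgals1* (0.994), *Cdh3* (0.993) and the collagen gene *Col1a2* (0.993), were all highest in Het1, with *Col1a2* at 136.5 CPM there and 9.36 to 19.7 CPM elsewhere. Between the members themselves r ran from -0.76, for *Sox8* with *Sox12*, to 0.89, for *Sox1* with *Sox11*.

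The nearest tested genes on either side of the members held 1 call among 16, against 7.22% of all genes tested. The call was *2610035D17Rik*, a lincRNA on the opposite strand whose nearer end lies 256 kb after *Sox9*. It was at 4.69, 4.56 and 4.52 CPM in Het and 5.62, 6.30 and 7.18 CPM in KO (log2 fold change 0.47, standard error 0.105, edgeR adjusted p = 0.0371). Leaving out each library in turn, it was called in 1 of 6 fits, the one without KO1, with an edgeR adjusted p of up to 0.122 in the others. *BC006965*, 0.248 kb before *Sox9*, had -0.05. Around *Sox8*, *Sstr5* and *Lmf1* had log2 fold changes of 0.24 and 0.18 with edgeR adjusted p of 0.455 and 0.111. *Zcchc3*, 13.9 kb from *Sox12*, had -0.21 (edgeR adjusted p = 0.0483), under the fold limit as *Sox12* was, and *Nrsn2* on the other side had 0.11. *Arhgef7* and *Tubgcp3* beside *Sox1* had -0.10 and 0.04, *Gm42692* and *Gm42693* beside *Sox2* 0.52 and 0.31, and *2610307P16Rik* and *A330102I10Rik* beside *Sox4* -0.04 and 0.42, and none of these passed in edgeR. *Polr2f* and *Pick1* beside *Sox10* had -0.17 and -0.06, and *Gm9866* and *Colec11* beside *Sox11* had 1.01 and 1.11 at 0.304 and 0.102 CPM on average, also without passing. The 16 neighbours were named by position, whatever their values.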

How the data were processed

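Per the labels and the paper's methods, the authors used STAR on GRCm38 (mm10) and featureCounts, and the deposited table holds raw counts per gene. Strand and multi-mapping settings of the counting are not given in the sources used here. The methods name a column kit for RNA extraction and the labels TRIzol. The 8 members and all gene lists were chosen with earlier results of these data known.

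Counts were fitted in R 4.3.3 with edgeR 4.0.16 (filterByExpr on genotype, TMM factors of 0.988 to 1.03, quasi-likelihood test on all 7 libraries, contrast KO minus Het, Benjamini-Hochberg over 20019 genes). The script was tested on simulated data. With a dispersion of 0.0460 the biological coefficient of variation came to 21.5%. A standard error is the log2 fold change over the square root of F, and intervals are at 95%. Exonic lengths and positions come from GENCODE M21, while the authors name release M10. Shares and subgroup sums were compared by two-sided exact permutation tests over 20 splits. Lists were counted, not tested as sets. The 29.7% of all genes with an unadjusted p below 0.05 is from the main edgeR fit, and that share was not taken for the fits without a library.

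Genes named are the members, other tested Sox genes, *Ptbp1*, the 3 most abundant and all called genes of each list, the 3 genes most like each member, and the neighbours of the members. Genes overlapping members and the further markers given (*Rax*, *Six3*, *Acan*, *Foxd3*, *Egfl7*, *Pecam1*, *Cdh5*, *Tie1*, *Clu*, *Rlbp1*) were added after their values were seen. Replicates are pools of retinas that differed by 13.4 to 49.1 times their counting variance, so p-values measure the spread between pools. Deviations of same-numbered Het and KO libraries correlated at -0.20 to 0.16 over 3 pairs. These values give no sign that the numbers pair samples, though 3 pairs cannot exclude it. Alternatives were DESeq2 1.42.0, RLE and upper-quartile scaling, other filters, fewer libraries, a replicate block, other call rules, protein-coding genes alone, and raw-count shares. The share over *Sox8* and *Sox9* alone and sums of markers without *Kdr* were chosen after seeing the data. Cnmd and Snorc were not analysed here, and some genes that the rule names are not reported here.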

Additional observations from a re-analysis of the deposited data

How the results depend on the processing

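Of 277 values of the 19 Sox genes under 15 alternatives, all but 14 kept their direction and their side of the threshold: 7 passed only under an alternative, 1 passed no longer and 6 turned sign. The turns were *Sox4* (log2 fold change 0.00023 with at least 10 counts in every library, 0.026 without Het1, 0.0032 without KO3 and 0.0063 in protein-coding genes alone), *Sox9* (0.023 without KO3) and *Sox30* (-0.024 without Het2), none of them called, and over the fits without a library these 3 ranged from -0.018 to 0.026, from -0.077 to 0.023 and from -0.024 to 0.26. *Sox8* was called throughout, so that the number of members called was 1 except in DESeq2, which called 2 (*Sox8* and *Sox10*). The number of genes called in all, 1445, ranged from 386 to 1674 when a library was left out (386 without Het2, 496 without Het3, 612 without KO2), and was 217 in a test against the fold limit itself and 2221 by adjusted p alone. DESeq2 called 2066. The *Sox8* share moved by 13.5 to 14.98 points without a library. The *Sox2* share moved by 0.558 points on raw counts in place of 0.244. The *Sox11* share, lower by 0.003 points in KO, ranged from -1.23 to 1.14 points without a library and was 0.639 without Het2, 0.585 without Het3 and 1.14 without KO1. With the replicate number as a block, 1268 genes and *Sox8* among the members were called, the *Sox8* share differed by the same 14.1 points (exact permutation p = 0.25, the smallest that 3 pairs allow), and no call among the 8 members changed. Another scaling moved the median log2 fold change of all genes to between -0.0069 and -0.0023. The cause of these changes was not tested. *Sox10*, *Sox15* and the SoxF genes held 0 to 422 counts in a library and the other members at least 370.0, and the part of depth in their intervals was not tested.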

Other observations

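Lens, cartilage and astrocyte genes were read as lists, since *Sox1* and *Sox2* act in lens, *Sox9* in cartilage and *Sox8* and *Sox9* in glia. Of 12 lens genes tested, 0 rose and 2 fell by edgeR, against 4.01% and 3.21% of all genes tested. The 2 were *Cryab* and *Foxe3*, and the median log2 fold change of the list was -1.10. An unadjusted p below 0.05 was reached by 4 of the 12, against 29.7% of all genes tested. *Cryab*, a small heat shock protein abundant in lens, was at 11.98 to 18.7 CPM in Het and 1.12 to 4.23 CPM in KO. *Foxe3*, a factor of the lens epithelium, had 20 to 417 counts in Het and at most 2 in KO. Without Het2, Het3 or KO2, 0 of the 12 passed in edgeR and 2, 2 and 3 reached an unadjusted p below 0.05, without KO1 1 fell and without KO3 5 fell. DESeq2 called 3 of 10 lower. *Cryaa* and *Cryba1*, with *Cryab* the most abundant, had log2 fold changes of -2.41 and 0.02 and adjusted p of 0.299 and 0.995 in edgeR. The summed lens CPM ran from 40.2 to 109 in Het and from 4.42 to 68.6 in KO.

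Of 9 cartilage genes tested, 0 passed in either direction by edgeR. Of these 9, 3 reached an unadjusted p below 0.05, against 29.7% of all genes tested. The median log2 fold change of the list was -0.10, while DESeq2 called 1 lower. By edgeR 1 was called higher without Het1 and 1 lower without KO3. *Col9a1*, *Col2a1* and *Col9a2*, the most abundant, had mean Het CPM of 296, 166 and 68.3 and log2 fold changes of -0.10, 0.12 and -0.35. *Acan*, the aggrecan core protein of cartilage, was far lower than these collagens, at 0.176 CPM in Het and 0.214 CPM in KO. Which cells gave the collagen RNA was not tested. *Sox9* stayed without a call beside the 9 genes.

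Of 5 astrocyte genes 2 rose and 1 fell, against 4.01% and 3.21% of all genes tested. An unadjusted p below 0.05 was reached by 3 of the 5, against 29.7% of all genes tested. *Gfap*, the intermediate filament of reactive glia, rose from 3.84 to 10.3 CPM (log2 fold change 1.43, edgeR adjusted p = 0.0189) and *S100b*, a calcium-binding protein of glia, from 0.593 to 1.45 CPM (1.29, edgeR adjusted p = 0.0126). *Aldh1l1*, an enzyme of folate metabolism, fell from 4.58 to 3.35 CPM (-0.45, edgeR adjusted p = 0.0233). *Pdgfra* and *Pax2*, with *Gfap* the most abundant, had values of 0.09 and -0.005, and the median of the list was 0.09. Without Het2 or without KO2, 0 of the 5 passed in edgeR and 3 reached an unadjusted p below 0.05, without Het3 1 passed and without KO1 2. *Sox8* was called in all of these fits.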
